A study of Mus musculus with 12 samples.

Results

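The genes described here are 8 members of the fibroblast growth factor (FGF) system of the mouse: the ligand genes Fgf4, Fgf5, Fgf8 and Fgf15, and the receptor genes Fgfr1, Fgfr2, Fgfr3 and Fgfr4. They were chosen by name, as the genes whose array probe set carried that symbol alone, and they are 8 of the 22180 genes with such a probe set. Where a gene had several probe sets, the brightest on average over the 12 arrays was used. Among the 8 this applied only to Fgf15, which had 2.

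FGF ligands are secreted proteins that bind receptor tyrosine kinases at the cell surface with the help of heparan sulphate chains. The bound receptor recruits adaptor proteins and passes the signal through RAS, RAF and MEK to the kinase ERK, which in turn switches on targets that include inhibitors of the same pathway. In the early mouse embryo, Fgf4 is made by the inner cell mass and the epiblast and drives both the split from primitive endoderm and the exit from naive pluripotency. Fgf5 is a classical marker of the epiblast after implantation, and Fgf8 is made in the forming primitive streak.

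The series compares pluripotent cell lines with the embryonic tissue they resemble, in 6 groups of 2 arrays each. ESC (embryonic stem cells, derived at E3.5) were grown in N2B27 with leukaemia inhibitory factor, the GSK3 inhibitor CHIR99021 at 3 µM and the MEK inhibitor PD0325901 at 1 µM, so their medium blocks the pathway below the FGF receptors. EpiSC (epiblast stem cells, derived at E5.75) were instead given 12 ng/ml FGF2, 20 ng/ml Activin A and 20% serum replacement in N2B27. The rsEpiSC lines, derived at E5.75 or at E6.5, were grown in N2B27 with 2.5 µM of the Wnt pathway inhibitor IWR1 and 20 ng/ml of an unnamed factor. All of these lines were kept on mouse embryonic fibroblasts, which carry FGF receptors of their own. The epiblast groups are tissue dissected at E5.75 or at E6.5. All samples are labelled with 1 cross of the reporter OCT4-deltaPE-GFP to C57BL, but the number after C57BL counts up from array to array beyond the 4 arrays of ESC and EpiSC, as does the upper passage number of the rsEpiSC lines, so neither was used. Other label fields use a different name for the rsEpiSC lines. Nothing in the labels says whether 2 arrays of a group were separate cultures or litters, and the p-values therefore cover no more than the spread between the arrays, part or all of which may be technical.

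Replicate arrays correlated at 0.943 to 0.988 over all genes. Marker levels followed the group labels: the mean log2 signal of 7 naive pluripotency genes was 8.98 to 9.18 on the ESC arrays and 4.10 to 4.76 on all others. The mean of 10 fibroblast markers was 5.41 to 5.89 in EpiSC and 5.07 to 5.20 in rsEpiSC E5.75, against 4.08 to 4.62 on all other arrays. The mean of 6 anterior neural genes was 6.12 to 6.89 in both rsEpiSC groups and 4.04 to 4.36 elsewhere. The mean of 8 visceral endoderm genes stayed between 4.15 and 4.56 on all 12 arrays. Cultured and tissue arrays also differed at the low end: the lower quartile of all genes was 3.306 to 3.376 on cultured arrays and 3.574 to 3.77 on tissue arrays, and the median difference over all genes lay between -0.19 and -0.10 for cultured minus tissue in 4 comparisons of that kind. The table holds no detection call, so the 95th percentile over 1405 chemosensory receptor genes, chosen after values were seen, was used as a guide to low signal. It lay at 4.08 to 4.30 on cultured and 4.53 to 4.80 on tissue arrays. Fgf4 and Fgfr1 were above it on all 12 arrays, Fgf15 on 11, Fgf5, Fgf8 and Fgfr2 on 7, Fgfr4 on 5 and Fgfr3 on 2.

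The sequences before the annotated starts of Fgf5, Fgf4 and Fgfr2 are shown because these 3 members had the widest spans of group means. The table of mouse promoters from RefSeq (build GRCm38.p6) held 5 of the 8 members, and Fgf8, Fgf15 and Fgfr1 were not matched. Each sequence is the 250 bases upstream of the start, 5′ to 3′ on the gene's own strand. Capitals mark exact matches, on either strand, to 4 motifs. The GC box was searched as GGGCGG and the ETS motif, named after a family of factors that includes targets of ERK, as CCGGAA. The box of core promoters bound by the TATA-binding protein was searched as TATAAA and will be called the core box. The last was the CCAAT box, searched by the letters of its name, and none of the 4 contains another. A match is a description of letters and not of binding.
Fgf4, chr7:144861136-144861385, plus strand: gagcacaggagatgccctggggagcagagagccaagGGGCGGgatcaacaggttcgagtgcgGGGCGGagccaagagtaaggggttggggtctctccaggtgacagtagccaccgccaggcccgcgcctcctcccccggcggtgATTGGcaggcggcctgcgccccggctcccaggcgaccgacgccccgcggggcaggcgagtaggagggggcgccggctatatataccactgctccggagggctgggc
Fgf5, chr5:98253934-98254183, plus strand: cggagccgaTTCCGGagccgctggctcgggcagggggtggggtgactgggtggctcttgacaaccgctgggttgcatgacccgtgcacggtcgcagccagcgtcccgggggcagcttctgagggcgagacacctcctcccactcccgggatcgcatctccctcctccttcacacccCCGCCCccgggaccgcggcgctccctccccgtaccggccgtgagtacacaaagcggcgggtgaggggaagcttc
Fgfr2, chr7:130266809-130267058, minus strand: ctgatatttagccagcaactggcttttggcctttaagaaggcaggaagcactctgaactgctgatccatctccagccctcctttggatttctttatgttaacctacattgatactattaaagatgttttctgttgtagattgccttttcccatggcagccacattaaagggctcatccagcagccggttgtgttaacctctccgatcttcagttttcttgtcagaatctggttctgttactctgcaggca

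The Fgf4 window held 2 GC boxes and 1 CCAAT box, the Fgf5 window 1 GC box and 1 ETS motif, and the Fgfr2 window none of the 4 motifs. Only exact letters were counted, so the run tatatata near the end of the Fgf4 window was not counted as a core box. Over 32851 promoter windows of the same length, 32.7% held a GC box, 33.8% a CCAAT box, 12.4% a core box and 12% an ETS motif. The windows of Fgf4 and Fgf5 were rich in G and C, at 71.2% with 21 CpG pairs and 70.8% with 24 CpG pairs. The Fgfr2 window had 44.0% G and C with 2 CpG pairs, and 21.1% of all windows had less. Fgfr3 and Fgfr4, which stayed near the low end of the array in every group, also had windows rich in G and C. These were at 66.8% and 72.8% for Fgfr3 and at 64.0% for Fgfr4. A relation of composition to the pattern over the groups was not tested.

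Fgf4, the ligand of the inner cell mass and early epiblast, had its highest signal in ESC. Its log2 signals were 9.25 and 9.37 in ESC, 6.23 and 7.24 in epiblast E5.75, 5.60 and 6.11 in EpiSC, 5.55 and 6.08 in epiblast E6.5, 4.84 and 4.98 in rsEpiSC E5.75, and 4.93 and 4.62 in rsEpiSC E6.5. Both ESC arrays lay more than 2 log2 units above every other array, and both arrays of each rsEpiSC group lay below every other array. Fgf4 fell by 3.45 ± 0.35 on the log2 scale (SE; 10.9-fold) in EpiSC against ESC (limma, adjusted p = 0.00011). It was 21.1-fold lower in rsEpiSC E5.75 than in ESC, a log2 difference of -4.4 ± 0.35 (limma, adjusted p = 1.14e-05), and in rsEpiSC E6.5 the log2 difference from ESC was -4.53 ± 0.35 (adjusted p = 9.73e-06). In these bulk samples, fewer cells that express a gene and less RNA per cell cannot be told apart.

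The epiblast was intermediate for Fgf4. ESC exceeded epiblast E5.75 by 2.58 ± 0.35 log2 units (limma, adjusted p = 0.000489) and epiblast E6.5 by 3.49 ± 0.35 (adjusted p = 5.48e-05). rsEpiSC E5.75 was lower than epiblast E5.75 by a log2 difference of -1.82 ± 0.35 (limma, adjusted p = 0.00433), with no overlap between arrays. For rsEpiSC E6.5 against the same tissue it was -1.96 ± 0.35 (limma, adjusted p = 0.00428), and -1.80 without rsEpiSC E6.5 replicate 2, which did not pass (adjusted p = 0.0554). Between EpiSC and epiblast E5.75 the log2 difference was -0.88 ± 0.35 and did not pass (limma, adjusted p = 0.0876). It was -1.29 after quantile normalization and -1.38 without epiblast E5.75 replicate 1, the lower of that pair, and passed both times (adjusted p = 0.014 and 0.0234). Between rsEpiSC E6.5 and its stage-matched tissue the Fgf4 difference was -1.04 ± 0.35 and did not pass (limma, adjusted p = 0.0717). It passed after quantile normalization (-1.23, adjusted p = 0.0299), with array weights (adjusted p = 0.0349) and in a fit of only the arrays compared (adjusted p = 0.0437).

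Fgf5, the marker ligand of the epiblast after implantation, was highest in tissue and lowest in ESC. Its log2 signals were 3.27 and 3.44 in ESC, 3.78 and 4.17 in rsEpiSC E5.75, 3.94 and 6.62 in EpiSC, 6.88 and 5.75 in rsEpiSC E6.5, 8.45 and 9.00 in epiblast E5.75, and 8.90 and 9.03 in epiblast E6.5. Every tissue array lay above every cultured array. The ESC arrays, both rsEpiSC E5.75 arrays and EpiSC replicate 1 were at or below the guide to low signal, so folds against these groups depend on the array's floor. Fgf5 was 41.2-fold lower in ESC than in epiblast E5.75, a log2 difference of -5.37 ± 0.65 (limma, adjusted p = 0.000234). It was 10.9-fold lower in EpiSC than in epiblast E5.75 (-3.44 ± 0.65, adjusted p = 0.00342) and 26.9-fold lower in rsEpiSC E5.75 (-4.75 ± 0.65, adjusted p = 0.000655). The EpiSC value rested on unequal arrays: the difference was -2.11 without EpiSC replicate 1 and -4.78 without EpiSC replicate 2, and it passed both times.

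Between the lines, Fgf5 depended on single arrays. The 2 EpiSC arrays were 2.67 log2 units apart, a gap as large as or larger than which was seen for only 0.0947% of all genes in that group. EpiSC replicate 2, the one with high Fgf5, also had the higher signal of the fibroblast collagen gene Col1a2, at 9.02 against 6.29, and the part of this in the gap was not tested. EpiSC exceeded ESC in Fgf5 by 1.92 ± 0.65 log2 units, which did not pass (limma, adjusted p = 0.125). The difference was 3.26 without EpiSC replicate 1 (adjusted p = 0.00255) and 0.59 without EpiSC replicate 2 (adjusted p = 0.733). Against rsEpiSC E5.75 the log2 difference, rsEpiSC minus EpiSC, was -1.30 ± 0.65 (limma, adjusted p = 0.432), and it was -2.64 without EpiSC replicate 1, which passed, and 0.03 without EpiSC replicate 2. For rsEpiSC E6.5 minus EpiSC it was 1.04 ± 0.65 (limma, adjusted p = 0.585), 2.37 without EpiSC replicate 2 (adjusted p = 0.018) and -0.30 without EpiSC replicate 1 (adjusted p = 1).

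The rsEpiSC E6.5 line had more Fgf5 signal than ESC, by 2.96 ± 0.65 log2 units (limma, adjusted p = 0.0136). This call was lost without rsEpiSC E6.5 replicate 1 (2.39, adjusted p = 0.145), without ESC replicate 1 (2.87, adjusted p = 0.0525) and without ESC replicate 2 (3.04, adjusted p = 0.0531). It was lower than its stage-matched tissue by a log2 difference of -2.65 ± 0.65 (limma, adjusted p = 0.0222). That call was lost without rsEpiSC E6.5 replicate 2 (-2.08, adjusted p = 0.188), without epiblast E6.5 replicate 1 (-2.72, adjusted p = 0.0848) and without epiblast E6.5 replicate 2 (-2.59, adjusted p = 0.0932). The ESC and rsEpiSC E6.5 arrays, and the rsEpiSC E6.5 and tissue arrays, did not overlap.

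Fgf8, a ligand of the primitive streak, was low in culture and highest in the later tissue. Its log2 signals were 4.50 and 3.98 in ESC, 4.35 and 3.96 in EpiSC, 4.0 and 4.21 in rsEpiSC E5.75, with 4.32 and 4.22 for rsEpiSC E6.5, 4.80 and 4.53 in epiblast E5.75, and 5.46 and 5.79 in epiblast E6.5. Both epiblast E6.5 arrays lay above all others, while the 8 cultured arrays lay between 3.96 and 4.50. The guide to low signal lay at 4.08 to 4.30 on cultured arrays and at 4.53 to 4.80 on tissue arrays. Neither epiblast E5.75 array was above it. Fgf8 differences from the cultured groups or from epiblast E5.75 therefore depend on the array's floor. Fgf8 was lower than in epiblast E6.5 in each cultured group, by -1.39 ± 0.27 in ESC (adjusted p = 0.00394), -1.47 ± 0.27 in EpiSC (adjusted p = 0.00277), -1.52 ± 0.27 in rsEpiSC E5.75 (adjusted p = 0.00304) and -1.35 ± 0.27 in rsEpiSC E6.5 (adjusted p = 0.00827), all on the log2 scale with limma. The last call was lost without rsEpiSC E6.5 replicate 1 (-1.40, adjusted p = 0.0567) and without rsEpiSC E6.5 replicate 2 (-1.31, adjusted p = 0.083). Within the tissue, epiblast E6.5 exceeded epiblast E5.75 in Fgf8 by 0.96 ± 0.27 log2 units, or 1.95-fold, which did not pass over all genes (limma, unadjusted p = 0.00366, adjusted p = 0.195).

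Of 5 measured primitive streak genes, 1 passed between the tissue stages. That gene, Mixl1, a homeobox gene, had a mean of 3.92 in the E5.75 tissue and 7.41 in the E6.5 tissue, and rose by 3.49 ± 0.37 log2 units (limma, adjusted p = 0.0128). Eomes, a T-box gene of the streak and early mesendoderm, had means of 7.25 and 8.93, a difference of 1.68 ± 0.26 that did not pass (limma, adjusted p = 0.0748). The mean log2 signal of 5 streak genes was 4.97 to 5.04 on the epiblast E5.75 arrays and 6.30 to 6.31 on the epiblast E6.5 arrays. It was 4.12 to 4.62 in culture. The part of streak cells in the Fgf8 difference was not tested.

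**Figure D1:**
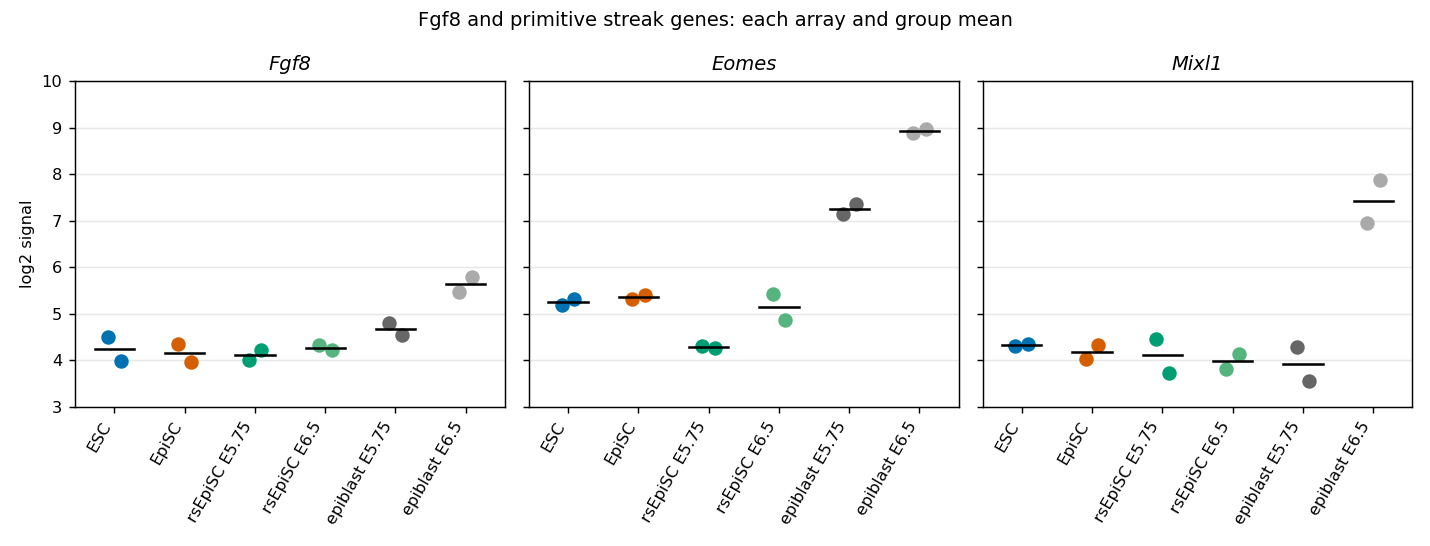
Log2 signal of Fgf8, Eomes and Mixl1 on each of the 12 arrays (points) with the mean of each group (lines), by group along the horizontal axis. The 2 epiblast E6.5 arrays are the highest for each of the 3 genes, at 5.46 and 5.79 for Fgf8, and Eomes is also raised in epiblast E5.75, where Mixl1 is not.

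Fgf15, the mouse counterpart of human FGF19 and a ligand of the early neural plate and later of the gut, had 2 probe sets that gave different pictures. On the brighter probe set its log2 signals were 4.44 and 3.93 in ESC, 4.56 and 5.70 in EpiSC, 6.76 and 4.98 in rsEpiSC E5.75, with 6.77 and 7.28 for rsEpiSC E6.5, 6.43 and 7.17 in epiblast E5.75, and 6.07 and 6.51 in epiblast E6.5. Both ESC arrays lay below every other array, and all rsEpiSC E6.5 and tissue arrays were above 6. On the dimmer probe set the signals were 4.46 and 4.4 in ESC, 4.18 and 4.71 in EpiSC, 4.79 and 4.02 in rsEpiSC E5.75, with 5.29 and 5.12 for rsEpiSC E6.5, 5.0 and 4.85 in epiblast E5.75, and 5.30 and 5.54 in epiblast E6.5. There the ESC, EpiSC and rsEpiSC E5.75 arrays overlapped, and the rsEpiSC E6.5 and tissue arrays were all above them.

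On the brighter probe set Fgf15 was 6.14-fold lower in ESC than in epiblast E5.75, a log2 difference of -2.62 ± 0.54 (limma, adjusted p = 0.00585). On the dimmer one it was -0.50 and did not pass (adjusted p = 0.242). Against epiblast E6.5 the ESC difference passed on both, at -2.11 ± 0.54 (limma, adjusted p = 0.0175) and -0.99 (adjusted p = 0.0337). On the brighter probe set that call was lost without ESC replicate 2 (-1.85, adjusted p = 0.095), without epiblast E6.5 replicate 1 (-2.32, adjusted p = 0.0522) and without epiblast E6.5 replicate 2 (-1.89, adjusted p = 0.0996). rsEpiSC E6.5 exceeded ESC by 2.84 ± 0.54 log2 units on the brighter probe set (limma, adjusted p = 0.00554) and by 0.78 on the dimmer (adjusted p = 0.147), and the call was lost without rsEpiSC E6.5 replicate 2 (2.59, adjusted p = 0.0642).

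In the remaining groups the Fgf15 value turned on single arrays. The rsEpiSC E5.75 arrays were 1.78 log2 units apart, a gap seen at that size or larger for 0.221% of genes in that group. rsEpiSC E5.75 exceeded ESC by 1.68 ± 0.54 (limma, adjusted p = 0.074), by 2.57 without rsEpiSC E5.75 replicate 2, which passed (adjusted p = 0.0159), and by 0.79 without rsEpiSC E5.75 replicate 1. The 2 EpiSC arrays were 1.14 log2 units apart. EpiSC was lower than epiblast E5.75 by a log2 difference of -1.67 ± 0.54 (limma, adjusted p = 0.042), a call kept in only 4 of 13 alternatives. It was -1.10 without EpiSC replicate 1 (adjusted p = 0.26), -2.04 without epiblast E5.75 replicate 1 (adjusted p = 0.0615), -1.30 without epiblast E5.75 replicate 2 (adjusted p = 0.168), -0.48 on the dimmer probe set (adjusted p = 0.242) and -1.67 with a replicate block (adjusted p = 0.054). The anterior neural genes, with which the early neural plate is marked, were high in both rsEpiSC groups and not in tissue. On its brighter probe set, Fgf15 was high in rsEpiSC E6.5 and in tissue, and the rsEpiSC E5.75 arrays differed. There replicate 1 had Fgf15 at 6.76 and an anterior neural mean of 6.89, and replicate 2 had 4.98 and 6.21. A relation of Fgf15 to the neural genes was not tested.

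**Figure D2:**
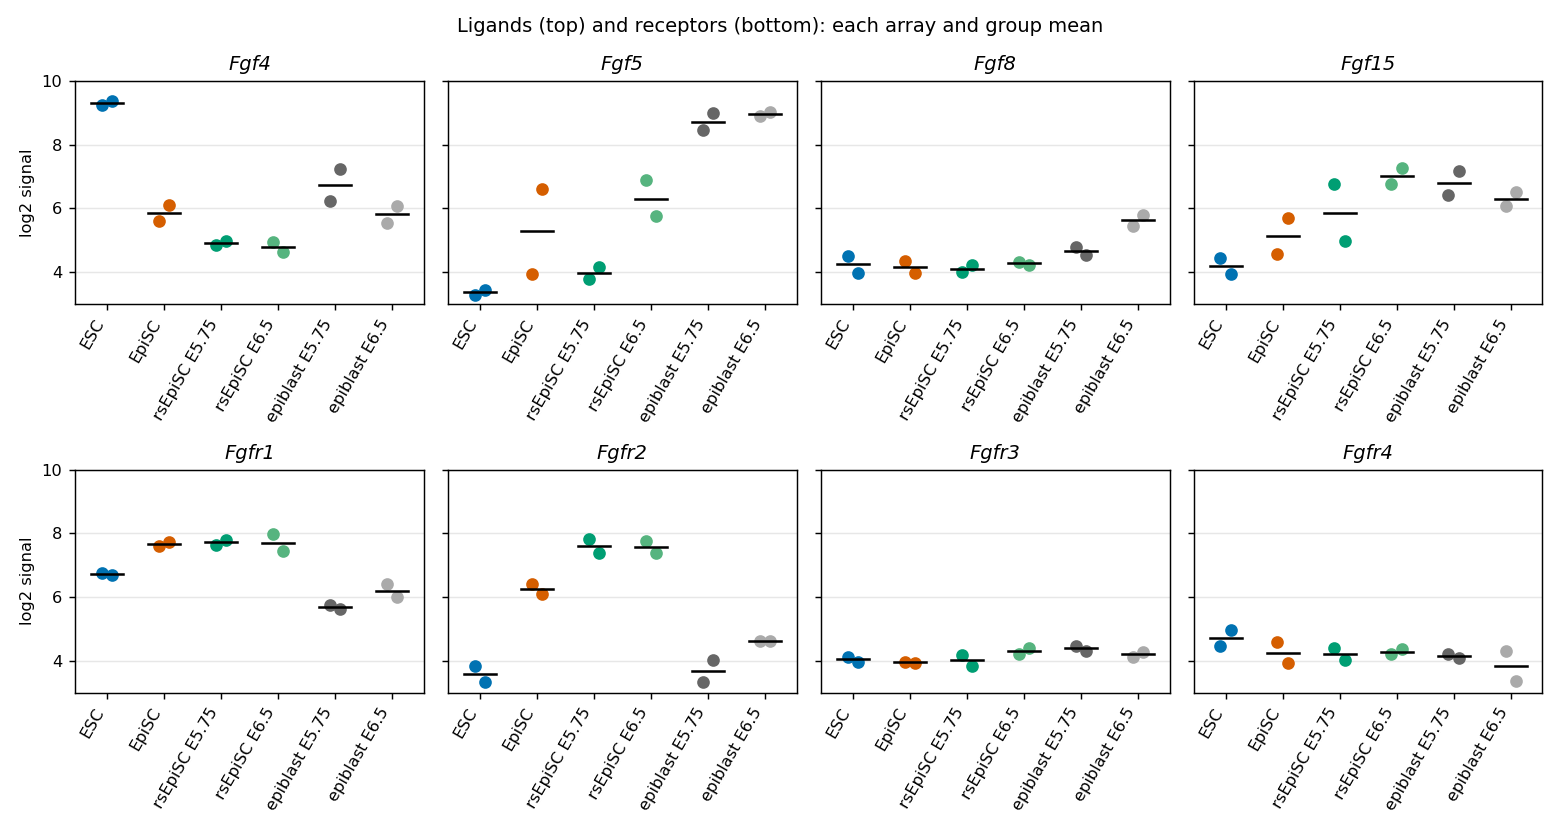
Log2 signal of the 4 ligand genes (top) and the 4 receptor genes (bottom) on each of the 12 arrays (points) with the mean of each group (lines), by group along the horizontal axis. Fgf4 is highest in ESC at 9.25 and 9.37, Fgf5 is highest in tissue at 8.45 to 9.03, and Fgfr2 is highest in the rsEpiSC groups at 7.37 to 7.81. The signals of different genes come from different probes and are not to be compared with one another.

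Fgfr1, the receptor that carries most FGF4 signalling in the epiblast, was high in the EpiSC and rsEpiSC lines and lowest in tissue. Its log2 signals were 6.77 and 6.69 in ESC, 7.62 and 7.72 in EpiSC, 7.65 and 7.79 in rsEpiSC E5.75, with 7.97 and 7.46 for rsEpiSC E6.5, 5.76 and 5.63 in epiblast E5.75, and 6.4 and 6.00 in epiblast E6.5. All 6 EpiSC and rsEpiSC arrays lay above both ESC arrays, which lay above all 4 tissue arrays. Fgfr1 was 3.92-fold higher in EpiSC than in epiblast E5.75, by 1.97 ± 0.26 log2 units (limma, adjusted p = 0.000439). It was higher in rsEpiSC E5.75 than in that tissue by 2.02 ± 0.26 (adjusted p = 0.000507), and in rsEpiSC E6.5 than in epiblast E6.5 by 1.51 ± 0.26 (adjusted p = 0.00448). Without rsEpiSC E6.5 replicate 1 the last difference was 1.26 and did not pass (adjusted p = 0.0659).

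Differences in Fgfr1 against ESC were of about 1 log2 unit and lay near the threshold. EpiSC exceeded ESC by 0.94 ± 0.26 (limma, adjusted p = 0.058) and passed in 3 alternatives, with no variance trend, with a filter on low signal and in a fit of cultured arrays alone (adjusted p = 0.0365 to 0.0496). rsEpiSC E5.75 exceeded ESC by 0.99 ± 0.26 (limma, adjusted p = 0.0328), and the call was lost without ESC replicate 1 (1.03, adjusted p = 0.0746), ESC replicate 2 (0.95, adjusted p = 0.118), rsEpiSC E5.75 replicate 1 (1.07, adjusted p = 0.138) or rsEpiSC E5.75 replicate 2 (0.92, adjusted p = 0.215). rsEpiSC E6.5 exceeded ESC by 0.98 ± 0.26 (limma, adjusted p = 0.0372), lost without any 1 of the 4 arrays compared, at 0.73 to 1.24 (adjusted p = 0.0688 to 0.357). The EpiSC and rsEpiSC differences from ESC were of like size, and EpiSC and rsEpiSC E5.75 differed in Fgfr1 by 0.05, with a 95% interval from -0.53 to 0.63. ESC exceeded epiblast E5.75 by 1.03 ± 0.26 (limma, adjusted p = 0.0175). That call was lost after quantile normalization (0.63, adjusted p = 0.134), without ESC replicate 1 (0.99, adjusted p = 0.0631) and without ESC replicate 2 (1.07, adjusted p = 0.051).

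Fgfr2, a receptor known for primitive endoderm, trophectoderm and later epithelia, separated the groups most widely among the receptors. Its log2 signals were 3.83 and 3.32 in ESC, 6.42 and 6.10 in EpiSC, 7.81 and 7.39 in rsEpiSC E5.75, with 7.76 and 7.37 for rsEpiSC E6.5, 3.32 and 4.03 in epiblast E5.75, and 4.63 and 4.62 in epiblast E6.5. The 4 rsEpiSC arrays were highest, the 2 EpiSC arrays came next, and all 6 ESC and tissue arrays were below 5. The ESC and epiblast E5.75 arrays were below the guide to low signal, and only 1 tissue array, of epiblast E6.5, was above it. Folds against ESC and tissue therefore depend on the array's floor. Fgfr2 rose 6.43-fold in EpiSC against ESC, by 2.69 ± 0.32 log2 units (limma, adjusted p = 0.000272), and 16.2-fold in rsEpiSC E5.75 against ESC, by 4.02 ± 0.32 (adjusted p = 1.06e-05). In rsEpiSC E6.5 it exceeded ESC by 3.99 ± 0.32 (adjusted p = 1.15e-05).

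Against tissue of the same stage, Fgfr2 was higher by 2.58 ± 0.32 in EpiSC (limma, adjusted p = 0.000251), by 3.92 ± 0.32 in rsEpiSC E5.75 (adjusted p = 3.16e-05) and by 2.94 ± 0.32 in rsEpiSC E6.5 (adjusted p = 0.000292). These differences, and those of Fgfr2 in the 3 lines against ESC, passed in every alternative tried. Fgfr2 also exceeded EpiSC in both rsEpiSC groups, by 1.33 ± 0.32 at E5.75 (limma, adjusted p = 0.037) and by 1.30 ± 0.32 at E6.5 (adjusted p = 0.0414). The first of these was lost without EpiSC replicate 1 (1.5, adjusted p = 0.107), EpiSC replicate 2 (1.17, adjusted p = 0.184), rsEpiSC E5.75 replicate 1 (1.13, adjusted p = 0.303) or rsEpiSC E5.75 replicate 2 (1.54, adjusted p = 0.108), and with every probe set tested (adjusted p = 0.103). The second was lost without any 1 of its 4 arrays, at 1.11 to 1.5 (adjusted p = 0.127 to 0.317), and with a replicate block (1.30, adjusted p = 0.0539). ESC were lower in Fgfr2 than epiblast E6.5 by -1.05 ± 0.32 (limma, adjusted p = 0.0368), a call kept in 6 of 13 alternatives and lost without ESC replicate 2 (-0.80, adjusted p = 0.197), epiblast E6.5 replicate 1 (-1.04, adjusted p = 0.116) or epiblast E6.5 replicate 2 (-1.06, adjusted p = 0.111).

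The lines grew on fibroblasts, and fibroblast marker signal was set beside both receptors. Against ESC, 3 of 10 markers rose in EpiSC and the same number in rsEpiSC E5.75: Tagln by 4.37 and 2.52, Col1a2 by 4.30 and 4.44, and Acta2 by 3.13 and 2.03 log2 units. In these comparisons 6.29% and 10.3% of all genes were called. In rsEpiSC E6.5 against ESC, 0 of the 10 were called beside 8.96% of all genes. The mean of the 10 was 4.45 to 4.53 on the rsEpiSC E6.5 arrays and 4.08 to 4.27 on the ESC arrays. It was 4.38 to 4.62 on tissue arrays, whose low end was higher. Fgfr1 (7.97 and 7.46) and Fgfr2 (7.76 and 7.37) of rsEpiSC E6.5 overlapped the rsEpiSC E5.75 arrays. EpiSC had the highest marker signal and less Fgfr2 than either rsEpiSC group. Any contribution of feeder RNA to the receptor signal of EpiSC and of either rsEpiSC group was not tested.

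**Figure D3:**
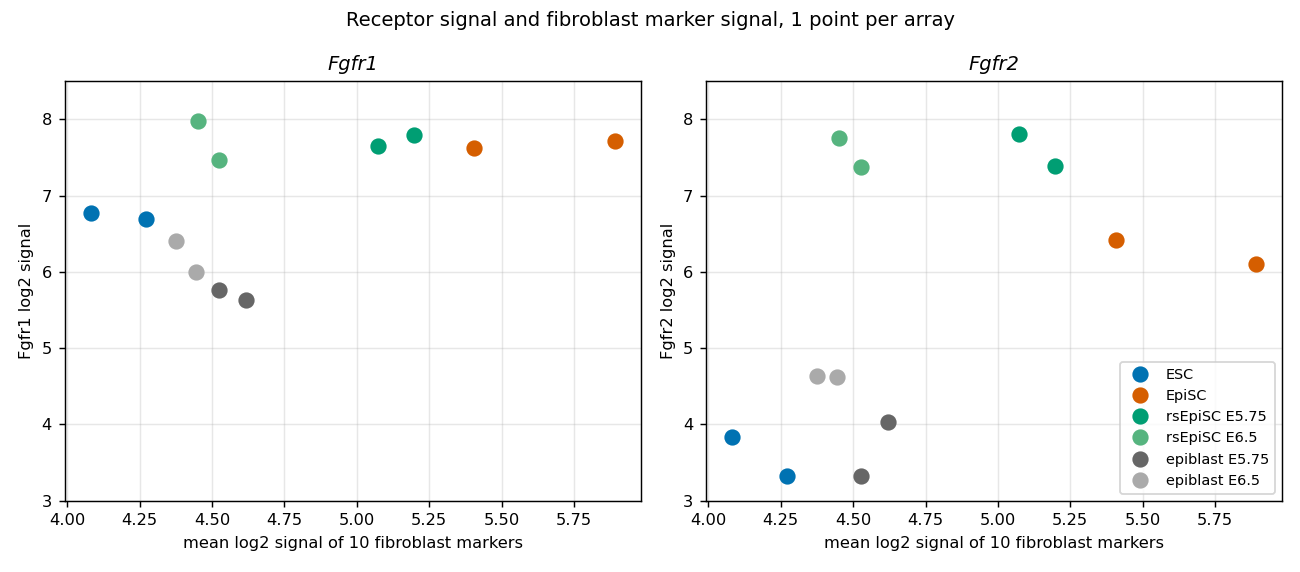
Log2 signal of Fgfr1 (left) and Fgfr2 (right) against the mean log2 signal of 10 fibroblast markers, with 1 point per array coloured by group. The rsEpiSC E6.5 arrays combine marker means of 4.45 and 4.53 with Fgfr2 at 7.76 and 7.37, while the EpiSC arrays, with marker means of 5.41 and 5.89, have Fgfr2 at 6.42 and 6.10.

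Fgfr3 and Fgfr4, receptors with roles in cartilage and in liver and muscle, stayed near the low end of the array. The log2 signal of Fgfr3 ran from 3.82 to 4.46 over the 12 arrays and that of Fgfr4 from 3.38 to 4.96, and neither passed in any of the 15 pairs of groups. The highest Fgfr4 group mean was 4.71, in ESC, and the lowest 3.85, in epiblast E6.5, where the 2 arrays were 0.94 apart. Without epiblast E6.5 replicate 1, Fgfr4 was higher in ESC by 1.32 and passed (limma, adjusted p = 0.0342). At these signals a difference of either gene may not be detectable.

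Ordered by group mean, few neighbouring groups passed over all genes. For the 8 members there are 40 neighbouring pairs, and 4 passed: ESC above epiblast E5.75 for Fgf4, epiblast E5.75 above rsEpiSC E6.5 for Fgf5, and, for Fgfr2, rsEpiSC E6.5 above EpiSC and EpiSC above epiblast E6.5. The Fgf5 step was 2.41 ± 0.65 (limma, adjusted p = 0.0284). It was lost without rsEpiSC E6.5 replicate 1 (-2.98, rsEpiSC minus tissue, adjusted p = 0.0552), rsEpiSC E6.5 replicate 2 (-1.84, adjusted p = 0.21), epiblast E5.75 replicate 1 (-2.69, adjusted p = 0.0693) or epiblast E5.75 replicate 2 (-2.13, adjusted p = 0.0927). No neighbouring groups of Fgf8, Fgf15, Fgfr1, Fgfr3 or Fgfr4 passed, although the highest and lowest groups of the first 3 did. Several steps that did not pass had unadjusted 95% intervals above 0. Among them were epiblast E6.5 above epiblast E5.75 for Fgf8 (0.38 to 1.54) and for Fgfr2 (0.26 to 1.64), and EpiSC above ESC for Fgfr1 (0.37 to 1.52). The groups were ordered by these same means, so each step is positive by construction and such intervals cannot establish it. Without rsEpiSC E6.5 replicate 1, or without replicate 2, 2 of the 40 pairs passed.

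Read by comparison, EpiSC against ESC called 2 of the 8 members, Fgfr2 higher and Fgf4 lower, where 6.29% of all 22180 genes were called. rsEpiSC E5.75 against ESC called 3 (Fgfr1 and Fgfr2 higher, Fgf4 lower), with a background of 10.3%, and rsEpiSC E6.5 against ESC called 5 (Fgf5, Fgf15, Fgfr1 and Fgfr2 higher, Fgf4 lower), with a background of 8.96%. The count of 5 fell to 3 without any 1 of its 4 arrays, that is ESC replicate 1 or 2 or rsEpiSC E6.5 replicate 1 or 2. Between the rsEpiSC groups and EpiSC, 1 member was called at each stage, Fgfr2, against 3.87% of genes at E5.75 and 3.89% at E6.5. Each of these Fgfr2 calls was lost without any 1 of its 4 arrays, at 1.13 to 1.54 for E5.75 and 1.11 to 1.5 for E6.5. Fgf5 was called instead without EpiSC replicate 1 at E5.75 (-2.64) and without EpiSC replicate 2 at E6.5 (2.37). With any other of these arrays left out, no member was called.

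Lines and tissue differed in many genes, and the members' counts stand against high backgrounds. Against epiblast E5.75, 4 members were called in ESC (background 21.5%): Fgf4 and Fgfr1 higher, Fgf5 and Fgf15 lower. In EpiSC 4 were called (background 24%), Fgfr1 and Fgfr2 higher and Fgf5 and Fgf15 lower. In rsEpiSC E5.75 4 were called (background 21.5%), and in rsEpiSC E6.5 4 (background 16.1%), in both Fgfr1 and Fgfr2 higher and Fgf4 and Fgf5 lower. The rsEpiSC E6.5 count was 2 without rsEpiSC E6.5 replicate 2. Against epiblast E6.5, 4 were called in rsEpiSC E6.5 (background 12.5%), Fgfr1 and Fgfr2 higher and Fgf5 and Fgf8 lower, and 2 without either rsEpiSC E6.5 array. The same 4 genes were called, in the same directions, in EpiSC (background 20.7%) and in rsEpiSC E5.75 (background 17.3%), while ESC differed in 5 (background 19.5%), Fgf4 higher and Fgf5, Fgf8, Fgf15 and Fgfr2 lower. The ESC count was 3 without ESC replicate 2 or without epiblast E6.5 replicate 2. Comparisons with the same tissue share its 2 arrays. In all 6 comparisons of EpiSC or rsEpiSC lines with tissue, Fgfr1 and Fgfr2 were higher and Fgf5 was lower.

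**Figure D4:**
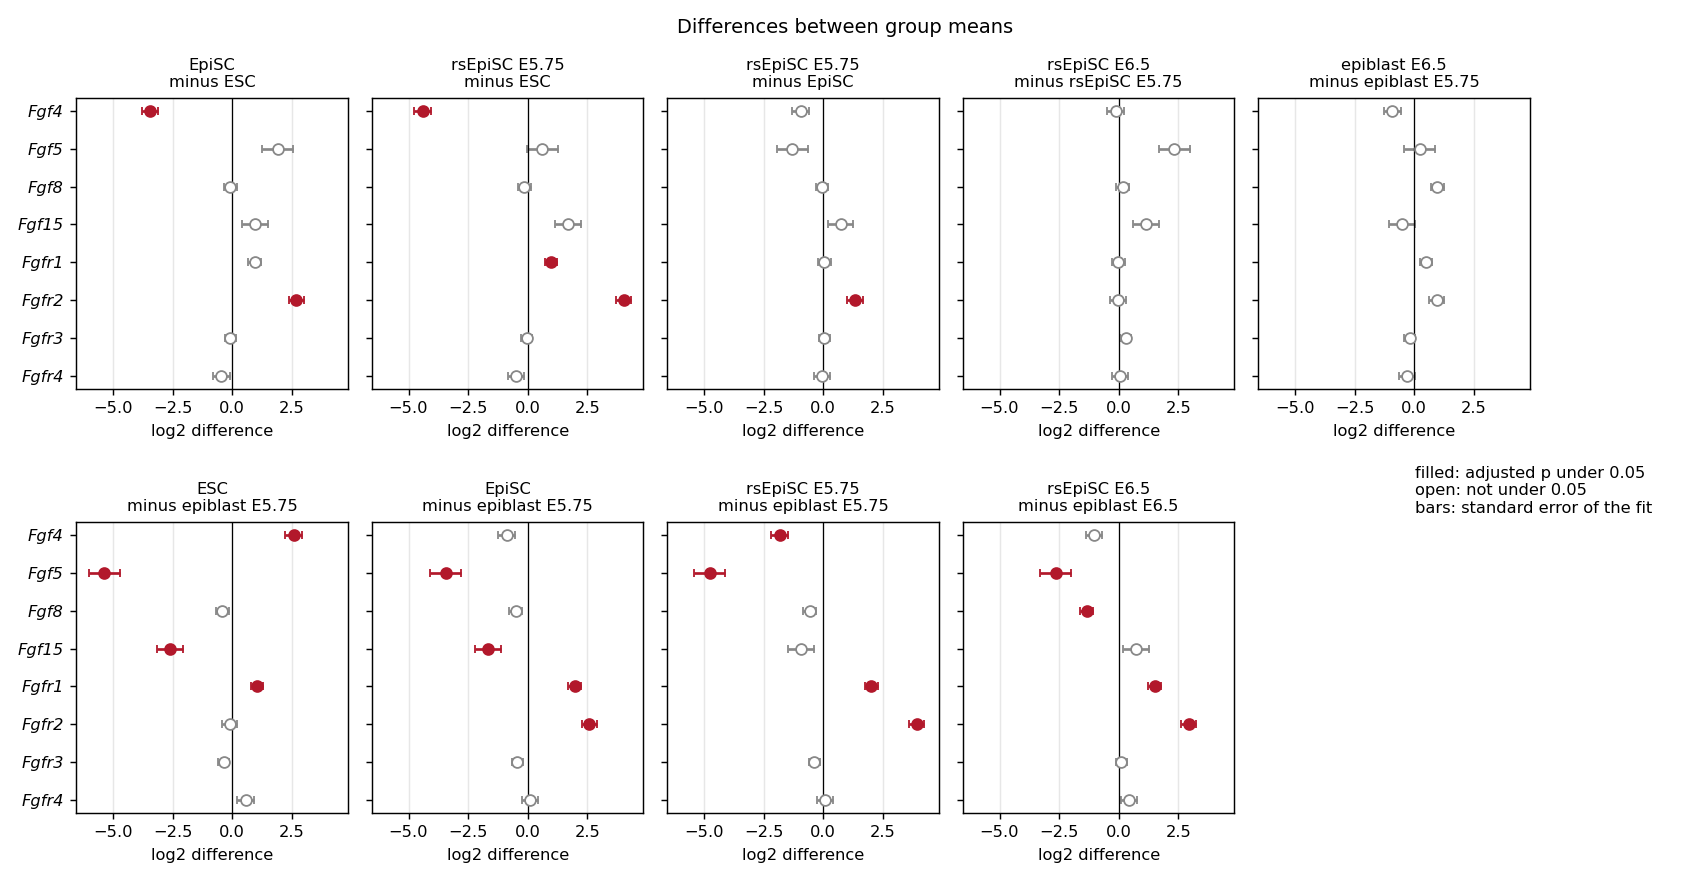
Log2 difference between group means of each of the 8 members (points) with its standard error from the limma fit (bars), in 9 comparisons, 1 per panel. Filled points passed at an adjusted p under 0.05. Fgfr2 reaches 4.02 in rsEpiSC E5.75 against ESC and Fgf5 reaches -5.37 in ESC against epiblast E5.75, and no point is filled in the panels that compare stages.

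Stage of derivation or of tissue called no member. For rsEpiSC E6.5 against rsEpiSC E5.75, limma called 0 of 8 (background 0.0857%) and 1, Fgf5, had an unadjusted p under 0.05. Over all 22180 genes, 1033 had such a p. Fgf5 was 2.34 ± 0.65 log2 units higher in the E6.5 line (limma, adjusted p = 0.468), with arrays that did not overlap, and passed with array weights (adjusted p = 0.0445) and in a fit of only the 4 arrays compared (adjusted p = 0.0363). Fgfr1 and Fgfr2 differed between the rsEpiSC groups by -0.01 and -0.03, with 95% intervals from -0.58 to 0.57 and from -0.72 to 0.66. For epiblast E6.5 against E5.75, 0 of 8 were called (background 0.0225%) and 3 had an unadjusted p under 0.05 with limma: Fgf8 at 0.96 ± 0.27, Fgfr2 at 0.95 ± 0.32 (adjusted p = 0.267) and Fgf4 at -0.92 ± 0.35 (adjusted p = 0.321). Of all 22180 genes, 2819 were under that unadjusted threshold between the tissue stages. The test of whether the stage difference was itself different in culture and tissue called 0 of 8 (background 0.00902%). For that test 1919 of all 22180 genes had an unadjusted p under 0.05. There Fgf5 (2.10 ± 0.92), Fgf15 (1.67 ± 0.76) and Fgfr2 (-0.98 ± 0.45) had unadjusted p-values of 0.0421, 0.0487 and 0.0497, and adjusted p-values of 0.561, 0.576 and 0.577. The Fgf15 value was 0.30 on the dimmer probe set. On that probe set the tissue stage difference was 0.50, against -0.51 on the brighter. It also turned on single arrays, at 0.78 without rsEpiSC E5.75 replicate 2 and 2.56 without rsEpiSC E5.75 replicate 1.

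Genes around the ligands and receptors were read from 6 lists. Of 14 other FGF ligands and 4 intracellular FGF homologous factors, relatives that are not secreted, 0 were called against ESC in EpiSC or rsEpiSC E5.75 with limma. At an unadjusted p under 0.05 there were 2 ligands and 1 homologous factor in EpiSC, and 0 and 1 in rsEpiSC E5.75. Over all 22180 genes there were 3686 in EpiSC and 4542 in rsEpiSC E5.75. The mean log2 signal of the 14 ligands was 3.96 to 4.28 on the 12 arrays. Against epiblast E5.75, 1 of the 14 ligands rose and 2 fell in EpiSC, and 2 fell in rsEpiSC E5.75. Of all genes, 24% and 21.5% were called. Fgf21, an endocrine ligand, was higher in EpiSC by 1.32 log2 units, and Fgf3 lower by a log2 difference of -0.83 in EpiSC and -0.86 in rsEpiSC E5.75. The mean of the 14 was near or below the guide to low signal, and tissue arrays read higher at the low end. The Fgf3 differences may therefore depend on the array's floor.

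Among 17 co-receptors and FGF-binding proteins, 1 was called in EpiSC against ESC, the syndecan Sdc2, higher by 0.99, where 6.29% of all genes were called. In rsEpiSC E5.75 against ESC 6 rose and 2 fell, with a median of 0.08 beside 0.02 over all genes, of which 10.3% were called. Flrt3, a membrane protein that binds FGF receptors, was 3.61 and 4.01 in ESC, 3.93 and 4.03 in EpiSC and 6.81 and 7.39 in rsEpiSC E5.75. It was 3.12 ± 0.30 log2 units higher in rsEpiSC E5.75 than in EpiSC (limma, adjusted p = 0.000167), where 3 of the 17 rose and 2 fell beside 3.87% of all genes called. Fgfbp1, a carrier protein that releases FGFs from the matrix, was 9.48 and 10.29 in EpiSC and 6.42 and 5.20 in rsEpiSC E5.75, a log2 difference of -4.07 ± 0.84 (limma, adjusted p = 0.018). Between EpiSC and rsEpiSC E5.75, Flrt3 and Fgfbp1 differed in opposite directions, and a relation to the Fgfr2 difference was not tested. The glypican Gpc3 was higher in rsEpiSC E5.75 by 1.73.

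Of 11 measured heparan sulphate enzymes, 2 rose in EpiSC against ESC, with a median of 0.47 beside 0 over all genes and 6.29% of all genes called. Sulf1, a sulphatase that trims heparan sulphate, was 6.04 and 3.49 in ESC and 8.00 and 9.10 in EpiSC and rose by 3.78 ± 0.62 log2 units (limma, adjusted p = 0.0028). It was 7.26 and 7.67 in epiblast E5.75 and 8.15 and 7.99 in epiblast E6.5, so ESC alone was low, with 2 arrays far apart. Of 15 measured adaptors and kinases of the cascade, 1 rose and 1 fell in EpiSC against ESC. Gab1, a docking adaptor, was 9.56 and 9.46 in ESC, 7.66 and 7.38 in EpiSC, 7.14 and 7.19 in rsEpiSC E5.75 and 6.10 to 6.73 in the other groups, and fell by 1.99 ± 0.23 in EpiSC (limma, adjusted p = 0.000271). As with Fgf4, both ESC arrays were the highest.

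Feedback inhibitors and targets of FGF and ERK were lower in ESC than in EpiSC or rsEpiSC E5.75 for most genes that passed. ESC medium holds a MEK inhibitor, but the groups also differ in other medium components and in stage of derivation. The effects of these on the targets cannot be told apart. Of 14 measured, 5 rose and 1 fell in EpiSC against ESC (median 0.86, beside 0 over all genes and 6.29% called), and 5 rose and 1 fell in rsEpiSC E5.75 against ESC (median 1.08, beside 0.02 and 10.3% called). Egr1, an immediate early transcription factor, was 4.24 and 3.56 in ESC, 7.45 and 5.87 in EpiSC, 7.22 and 7.55 in rsEpiSC E5.75, with 5.32 and 5.35 for rsEpiSC E6.5 and 4.06 to 4.98 in tissue, and rose by 2.76 ± 0.46 in EpiSC (limma, adjusted p = 0.00318). Spred1, an inhibitor of RAS activation, was 5.56 and 4.81 in ESC and 7.13 to 8.29 on the other arrays, and rose by 2.38 ± 0.33 in EpiSC (limma, adjusted p = 0.00103). Both genes also rose in rsEpiSC E5.75 against ESC. In rsEpiSC E6.5 Spred1 rose by 2.86 ± 0.33 (limma, adjusted p = 0.000191), while Egr1 differed by 1.44 ± 0.46 and did not pass (adjusted p = 0.0819).

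Not every target followed that order. Spry2, a Sprouty inhibitor of the pathway, was 8.96 and 9.45 in ESC and 6.28 and 7.98 in EpiSC, and fell by 2.08 ± 0.49 (limma, adjusted p = 0.0255), and Etv5, an ETS factor, fell by 1.43 in rsEpiSC E5.75 against ESC. Dusp6, a phosphatase of ERK, was 9.09 and 6.35 in ESC, 9.50 and 10.00 in EpiSC, 10.52 and 10.55 in rsEpiSC E5.75 and 11.06 to 11.41 in tissue. The 2 ESC arrays were far apart. Dusp6 was lower in ESC than in epiblast E5.75 by a log2 difference of -3.52 ± 0.59 (limma, adjusted p = 0.00183). Dusp4, another such phosphatase, was 8.05 and 8.11 in rsEpiSC E5.75 and 6.60 and 6.36 in EpiSC, a difference of 1.60 ± 0.36 (limma, adjusted p = 0.0289). Against epiblast E5.75, 2 of the 14 fell in ESC, 3 rose in EpiSC, and 4 rose and 1 fell in rsEpiSC E5.75, with medians of -0.15, 0.32 and 0.91 beside -0.18, -0.19 and -0.16 over all genes. In these comparisons 21.5%, 24% and 21.5% of all genes were called, so the counts in ESC and EpiSC were at or below the background. Between stages, 0 of the 14 were called with limma in rsEpiSC and 0 in tissue, with 4 and 1 at an unadjusted p under 0.05. Over all 22180 genes, 1033 in rsEpiSC and 2819 in tissue had such a p.

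The pattern of each member over the 12 arrays was compared with 8879 genes whose group means spanned at least 1 log2 unit, by Pearson correlation, as a description over 12 arrays that share 6 groups. Closest to Fgf4 were Akap1 (0.970), Tfpi (0.966) and Gdf3 (0.964), and closest to Fgf5 was Dnmt3b (0.966), the de novo DNA methyltransferase of the primed epiblast, followed by Fam169a (0.964) and Rbis (0.960). Closest to Fgf8 were Trmt10c (0.948), Vmn1r222 (0.946) and Gpalpp1 (0.944). Vmn1r222 belongs to the chemosensory receptor genes that served as the guide to low signal. Fgf15 had the loosest neighbours, Bnip3 (0.917), Kdm5d (0.892) and Tpgs2 (0.891). Closest to Fgfr1 were Lrrc61 (0.966), Cad (0.964) and Anapc11 (0.962), and closest to Fgfr2 were Evl (0.979), Fam205a2 (0.976) and Dpysl2 (0.963). Among the members, Fgfr1 and Fgfr2 correlated at 0.86, Fgf5 and Fgf8 at 0.69, and Fgf4 and Fgfr2 at -0.79.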

How the data were processed

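RNA of 12 samples in 6 groups of 2 was amplified, labelled with biotin and hybridised, per the labels' protocols. The deposited values are log2 signals of 41345 probe sets, which the authors made with RMA in oligo, as the submitters' processing notes list; versions were not given in the sources used here. Their labelling protocol names a human array, but the identifiers matched the mouse table supplied: 23521 probe sets had 1 symbol, 1814 several and 16010 none. The values were used as deposited.

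Tests used limma 3.58.1 (R 4.3.3): group means of all 12 arrays in 1 fit, eBayes with a variance trend, and Benjamini-Hochberg adjustment over 22180 genes within each comparison, called at an adjusted p under 0.05. Errors are standard errors of that fit. The script was tested on simulated data. Alternatives were quantile normalization, centring, array weights, no trend, a filter on low signal, every probe set, the other Fgf15 probe set, fewer arrays, a replicate block and each array left out.

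Members and lists were chosen with earlier results of these data known. Named genes were the 8 members, up to 3 passing genes per list with the largest difference, and 3 genes most like each member that spanned 1 log2 unit; Etv5 and Eomes fall outside that rule and were chosen after values were seen. The precision is limited by 2 arrays per group.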

Additional observations from a re-analysis of the deposited data

Results flagged for a closer look

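The stage differences of Fgfr3 had opposite signs in culture and in tissue, with no overlap between arrays, and neither passed. The share of all genes with such a pattern was not counted. Fgfr3 was above the guide to low signal on 2 cultured arrays and on 0 tissue arrays. Its log2 signal was higher in rsEpiSC E6.5 than in rsEpiSC E5.75 by 0.30 ± 0.23 and lower in epiblast E6.5 than in epiblast E5.75 by a difference of -0.19 ± 0.23. The test of the difference between the 2 stage effects gave 0.50 ± 0.32 and did not pass (limma, unadjusted p = 0.152, adjusted p = 0.703), at signals near the low end of the array.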

How the results depend on the processing

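Over 22 alternatives, 1752 recomputed member differences gave 1661 with the same direction and side of the threshold, 70 that no longer passed, 21 that newly passed and 0 called differences of the opposite sign. Counts of the 8 members called moved by over 1.5 times as follows. rsEpiSC E5.75 against EpiSC went from 1 to 0 with every probe set, and to 0 to 1 with each array left out. rsEpiSC E6.5 against rsEpiSC E5.75 went from 0 to 1 with array weights and to 1 with only the arrays compared, both times Fgf5. ESC against epiblast E5.75 went from 4 to 2 with array weights. rsEpiSC E6.5 against epiblast E6.5 went from 4 to between 2 and 3 with each array left out. rsEpiSC E6.5 against ESC went from 5 to 3 with every probe set or without any 1 of its arrays, rsEpiSC E6.5 against epiblast E5.75 from 4 to 2 without rsEpiSC E6.5 replicate 2, and ESC against epiblast E6.5 from 5 to 3 with array weights, without ESC replicate 2 or without epiblast E6.5 replicate 2. rsEpiSC E6.5 against EpiSC went from 1 to 3 with array weights, and to 0 with every probe set, a replicate block, or without EpiSC replicate 1 or either rsEpiSC E6.5 array. The 4 neighbouring pairs became 2 with every probe set and 2 to 6 with each array left out. For these changes the cause was not tested. A left-out array leaves a group with 1 array, assumed to vary like the others. A fit of cultured or tissue arrays alone was not possible where a comparison spans both.

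A replicate block, with the replicate number as a term, ended 2 calls, Fgf15 in EpiSC against epiblast E5.75 (adjusted p = 0.054) and Fgfr2 in rsEpiSC E6.5 against EpiSC (adjusted p = 0.0539), and no other call of a member. The numbers did not pair the arrays: the replicate differences of 2 groups correlated at -0.26 to 0.06 over 15 pairs of groups, and 0 exceeded 0.1.

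Calls over all genes also moved, every probe set aside, which counts probe sets. EpiSC against ESC called 1396 genes and 558 to 1566 under alternatives, rsEpiSC E5.75 against ESC 2282 and 1027 to 2762, rsEpiSC E5.75 against EpiSC 858 and 318 to 1567, rsEpiSC E6.5 against rsEpiSC E5.75 19 and 3 to 257, epiblast E6.5 against epiblast E5.75 5 and 0 to 155, ESC against epiblast E5.75 4762 and 1261 to 5465, EpiSC against epiblast E5.75 5321 and 2316 to 6100, rsEpiSC E5.75 against it 4768 and 1627 to 5504, and rsEpiSC E6.5 against epiblast E6.5 2772 and 553 to 3863. Quantile normalization moved the median difference of ESC minus epiblast E5.75 from -0.18 to -0.05. With 2 arrays a group and no detection call, Fgf8, Fgfr3 and Fgfr4, and Fgf5 and Fgfr2 in ESC, lie at or near the low end of the array, where signal over background limits what can be seen.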
